A study of Mus musculus with 23 samples.

Results

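Interferon-stimulated genes are transcripts that cells raise when interferons bind their receptors, and 45 of them were followed through neutrophils and lungs of mice by bulk RNA-Seq. The members were chosen by name, as genes commonly counted among interferon-induced transcripts, and were matched by NCBI gene identifier in the tables of sorted neutrophils (21878 genes) and by symbol in the table of whole lung (55335 genes). Of the 45 members, 43 stood in the neutrophil tables, *Mx1* and *Mx2* were not analysed there, and all 45 stood in the whole-lung table. *Ifi44* reached at most 2 reads in any neutrophil library, and the other 42 reached 1 FPKM in 3 or more libraries of the tissue experiment.

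The series holds 23 libraries from 3 experiments. Neutrophils were sorted as CD45+CD11b+Ly6G+ cells from perfused lung, peripheral blood (PB) and bone marrow (BM) of WT mice, with 3 libraries per tissue. In a second experiment, neutrophils of lung and PB came from WT mice and from *Piezo1*-cKO mice, with 2 libraries per group. *Piezo1*-cKO mice carry *Piezo1* fl/fl and Vav1-iCre, which is active in all hematopoietic cells and not in neutrophils alone, so loss of the mechanosensitive channel PIEZO1 is not limited to neutrophils in these mice. The third experiment compared whole lungs of WT mice whose neutrophils were depleted with an anti-Ly6G antibody with whole lungs of WT controls (an isotype antibody by the methods), with 3 libraries per group. The labels name no interferon and no pathogen for any of these groups. The labels give no age for the mice. Replicates of the tissue experiment are described as separate mice by the study. For the other experiments neither the labels nor the descriptions of the RNA-Seq data state this, and p-values there measure the spread between these samples. The design asks how neutrophils of the 3 tissues differ, whether *Piezo1* deletion alters lung and PB neutrophils, and how the lung changes without neutrophils.

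Type I interferons bind the receptor IFNAR1 with IFNAR2, and the kinases JAK1 and TYK2 then activate a complex that holds STAT2 and IRF9 and binds the interferon-stimulated response element (ISRE). Interferon-gamma signals through IFNGR1 and IFNGR2 with JAK1 and JAK2, acts at the gamma-activated site (GAS) and drives genes such as *Irf1* and the interferon-inducible GTPases. The products restrict viruses and intracellular microbes, sense foreign nucleic acids, amplify the response or end it. Neutrophils express many of these genes in healthy mice, and their level is known to vary between subsets of neutrophils.

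Promoters are shown for 6 members whose levels differ in different directions between tissues, with capitals marking matches on either strand to an ISRE (GAAA, any 2 bases, then GAAA) or a GAS (TTCNNNGAA). *Ifit1* (NCBI gene 15957) and *Isg15* (NCBI gene 100038882) stand for the antiviral genes, *Irf1* (NCBI gene 16362), *Igtp* (NCBI gene 16145) and *Gbp2* (NCBI gene 14469) for the genes best known from interferon-gamma, and *Cxcl10* (NCBI gene 15945) for the chemokines. Each stretch lies upstream of a transcript start of RefSeq on GRCm38.p6 and is written on the strand of the gene.
Ifit1, chr19:34640773-34640825, plus strand: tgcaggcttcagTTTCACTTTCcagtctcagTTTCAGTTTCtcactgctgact
Isg15, chr4:156200863-156200908, minus strand: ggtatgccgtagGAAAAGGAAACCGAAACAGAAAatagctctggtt
Irf1, chr11:53769912-53769944, plus strand: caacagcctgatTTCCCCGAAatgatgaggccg
Igtp, chr11:58199499-58199543, plus strand: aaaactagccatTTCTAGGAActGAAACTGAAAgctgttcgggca
Gbp2, chr3:142620592-142620625, plus strand: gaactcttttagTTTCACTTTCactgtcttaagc
Cxcl10, chr5:92349081-92349114, minus strand: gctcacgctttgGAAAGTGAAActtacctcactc
The *Ifit1* stretch holds 2 separate ISRE matches, and the *Isg15* stretch holds 3 that overlap in 1 run of capitals. *Igtp* has a GAS match followed by an ISRE match, *Irf1* a GAS match alone, and *Gbp2* and *Cxcl10* an ISRE match each. Windows of 250 bases before to 50 bases after the start were given for 35 of the 45 members (42 windows), and *Mx1*, *Mx2*, *Oas2*, *Usp18*, *Dhx58*, *Parp9*, *Parp14*, *Rtp4*, *Zbp1* and *Ly6e* had none. An ISRE match stood in 21 of these 42 windows and in 3.44% of all 32851 windows, and a GAS match in 9 of the 42 and in 8.30% of all. A match is a run of letters and not a measured binding site. Several members are neighbours in the genome: the 4 Ifit genes lie within chr19:34550550-34650009, and *Rsad2* and *Cmpk2* within chr12:26442743-26479837. *Ifit3* and *Ifit3b* are near-identical copies, so reads that match both could have been dropped or misassigned in counting. The separate levels of these 2 genes are uncertain.

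Depth, recovered from the deposited values, was 16.5 to 19.3 M reads per library in the tissue experiment and 9.6 to 15.0 M in the *Piezo1* experiment, and it is unknown for whole lung. All 8 neutrophil markers reached 1 FPKM in every sorted group. Their summed level was 127968 to 145878 FPKM in BM and 43299 to 73299 in PB and lung of the tissue experiment. The bulk of these sums was *S100a8* and *S100a9*. *Csf3r* (704, 728 and 725 in BM and 2453, 2633 and 1996 in PB) was lower in BM than in PB. So was *Cxcr2* (578, 569 and 584 in BM and 983, 963 and 1057 in PB), and the other neutrophil markers were higher in BM. Markers of immature neutrophils such as *Camp* and *Ltf* summed to 36614 to 37747 in BM and to 553 to 790 in PB and lung. Monocyte and macrophage markers summed to 55.4 to 60.9 in BM, 156 to 171 in PB and 124 to 127 in lung of the tissue experiment. Most of this came from *Csf1r* and *Adgre1*. The macrophage gene *C1qa* stood at 5.68, 3.35 and 4.33 in BM, at most 0.05 in PB and at most 0.75 in lung. *Mrc1* stood at 0.86 to 1.02 in BM and at most 0.08 in PB and lung. *Ms4a7* and *Marco* were at 0 in PB and at most 0.48 elsewhere. Epithelial markers summed to 16.2 to 17.5 in BM, 13.9 to 24.1 in PB and 5.38 to 6.36 in lung, mostly from *Ager*, with *Epcam* at most 0.08. T and NK cell, endothelial and platelet markers summed to at most 6.18 in any sorted library. B cell, plasmacytoid dendritic cell and fibroblast markers summed to at most 2.20 in every sorted library, with the plasmacytoid marker *Siglech* at 0 in 13 of 17 libraries. Of 5 dendritic cell markers, *H2-Aa* (an MHC class II gene that B cells and macrophages also express) alone exceeded 1 FPKM in lung (37.6 to 43.5 in the tissue experiment, and 46.6 to 71.7 in the *Piezo1* experiment), against at most 0.25 in PB and 1.78 in BM. PB library 3 stood apart from PB libraries 1 and 2: the spread between PB replicates was 11.1% in biological coefficient of variation, against 3.06% in lung and 3.26% in BM.

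Levels are given in FPKM, reads scaled to transcript length and library size, which allows genes to be compared per length. Differences are between group means of log2(FPKM + 1), ± the SE of the limma fit, and a gene was called where the Benjamini-Hochberg adjusted p was below 0.05 and the log2 difference was over 1 in size, as the study's methods set it for neutrophils. The median member stood at 16.7 FPKM in BM, 43.0 in PB and 19.5 in lung, over the 43 members listed. Mean levels of at least 100 FPKM were found for 3 members in BM, 11 in PB and 6 in lung. The schlafen gene *Slfn4* was the highest member in all 3 tissues. It stood at 1036, 1064 and 1106 FPKM in the 3 BM libraries, 1129, 1366 and 609 in PB and 1111, 1118 and 1134 in lung. PB library 3 held the lowest *Slfn4* level of the 9 libraries and made the PB values span those of the other tissues. Behind *Slfn4* the order was *Samd9l*, *Oas3* and *Oasl2* in BM, *Oasl2*, *Ly6e* and *Irf1* in PB, and *Isg15*, *Oasl2* and *Ly6e* in lung. In lung, the neighbours *Oasl2* (168, 169 and 168) and *Ly6e* (170.2, 158 and 158) overlapped, whereas *Isg15* stood clear of both.

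**Figure D1:**
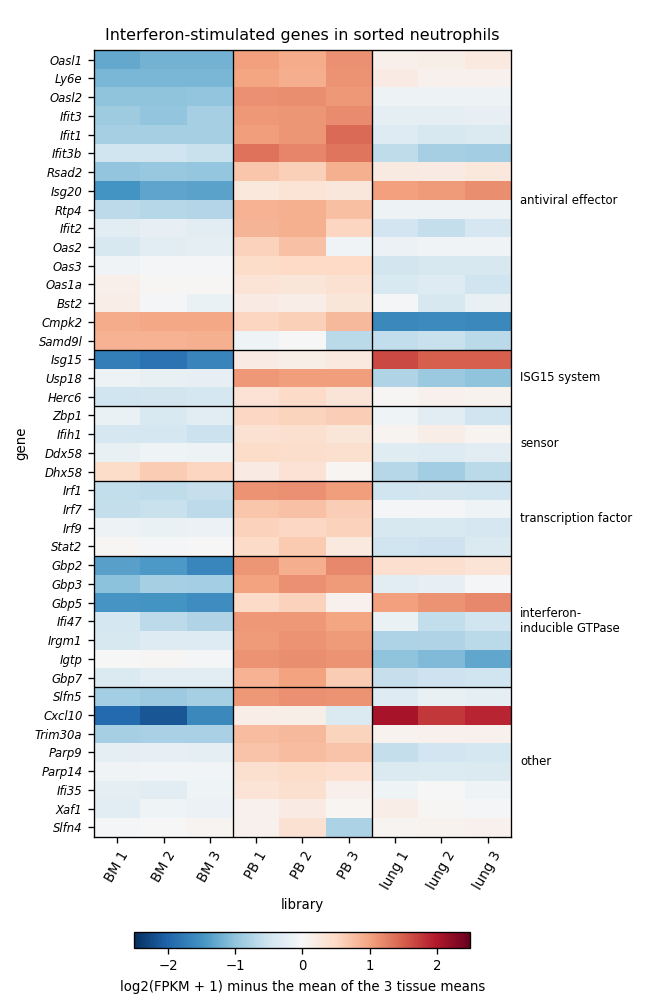
Heat map of 42 interferon-stimulated genes (rows, by role) in the 9 libraries of the tissue experiment (columns), with color for log2(FPKM + 1) minus the mean of the 3 tissue means. PB columns are the reddest for 31 genes, lung columns for 4 (*Isg15*, *Isg20*, *Cxcl10* and *Gbp5*) and BM columns for 3 (*Cmpk2*, *Dhx58* and *Samd9l*).

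Blood was the tissue in which most interferon-stimulated genes peaked. All 3 PB libraries were above all BM and lung libraries for 31 of 42 members, a pattern that 22.0% of all genes showed (1855 of 8414). All 3 lung libraries were highest for 4 members (12.3% of all genes), all 3 BM libraries for 3 (41.4%), and no member was lowest in all PB libraries (5.80%). As deposited, most genes had lower FPKM in lung than in the other tissues, with a median log2 difference over all genes of -0.54 against PB and -0.70 against BM. After rescaling the libraries by their median ratio, PB was highest for 23 members (14.9% of all genes), lung for 9 (27.5%) and BM for 1 (28.6%).

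From BM to PB, 24 of 42 members rose and 1 fell, where 7.85% and 14.1% of 8237 genes were called in those directions. The median log2 difference was 1.19 over the members and -0.12 over all genes. At adjusted p below 0.05 with no threshold on fold, 40 of 42 members were called, against 73.1% of all genes. These counts include *Gbp3*, *Gbp5* and *Cxcl10*, which passed the filter through PB alone. Without any 1 PB library these 3 were no longer tested, and 20 or 21 of 39 members rose. The rises spanned antiviral effectors, the ISG15 system, transcription factors and the interferon-inducible GTPases. Under rescaling, 25 members rose and 1 fell, where 776 and 1001 of 8222 genes were called in those directions. Markers of immature neutrophils and the monocyte and macrophage genes *Csf1r*, *Adgre1* and *C1qa* differed between BM and PB as well (above). The methods describe a negative selection before the sort for PB and lung cells and none for BM cells. The part of these markers and of the selection in the differences was not tested.

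Among the 16 antiviral effectors, 10 rose from BM to PB. *Oasl1*, an oligoadenylate synthetase-like protein that restrains translation of *Irf7*, stood at 15.6, 16.9 and 16.9 FPKM in BM and 81.5, 75.9 and 88.0 in PB, a log2 difference of 2.24 ± 0.07, adjusted p = 5.86e-08. *Ifit1*, which binds foreign RNA ends, stood at 12.0, 12.0 and 12.1 in BM and 47.1, 49.0 and 60.5 in PB, a difference of 2.02 ± 0.09, adjusted p = 4.38e-07. *Ifit3*, its partner in the same complex, stood at 14.2, 13.1 and 14.8 and 58.4, 59.6 and 62.7, a difference of 2.03 ± 0.06, adjusted p = 5.40e-08. BM and PB did not overlap for any of these, and each PB library held several times the level of each BM library. *Rsad2*, which encodes viperin, a maker of a chain-terminating nucleotide, stood at 34.9, 35.8 and 35.0 in BM and 114, 106 and 130.0 in PB (1.69 ± 0.08, adjusted p = 3.81e-07). *Ly6e*, a surface protein that blocks viral entry, stood at 66.0, 66.3 and 65.9 and 291, 278 and 322 (2.15 ± 0.06, adjusted p = 4.78e-08). *Oasl2* rose by 2.12 on the log2 scale. BM and PB were apart for *Rsad2* and *Ly6e* too. *Ifit2* was called at 1.02 but fell under the threshold without PB library 1 (0.98) or PB library 2 (0.96). The oligoadenylate synthetases that activate RNase L moved less: the log2 differences were 0.28 for *Oas1a*, 0.70 for *Oas2* and 0.53 for *Oas3*, none of them called.

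Of the ISG15 system, 2 of 3 members rose. *Isg15*, a ubiquitin-like protein that is attached to other proteins and also secreted, stood at 32.6, 30.0 and 34.4 in BM and 128, 123 and 131 in PB (1.94 ± 0.06, adjusted p = 8.06e-08). *Usp18*, the protease that removes ISG15 and dampens signaling from IFNAR2, stood at 13.8, 13.3 and 13.0 in BM and 33.4, 32.6 and 32.3 in PB (1.24 ± 0.05, adjusted p = 2.51e-07). The 2 groups were apart in both genes. *Herc6*, the ligase that attaches ISG15 in mice, was at 0.86 on the log2 scale and was not called.

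Both IRF genes that interferons induce most rose, and *Irf9* and *Stat2* moved less. *Irf7*, which amplifies type I interferon production, stood at 73.4, 75.1 and 70.3 in BM and 180.4, 185 and 171 in PB (1.28 ± 0.05, adjusted p = 2.37e-07). *Irf1*, an activator of interferon-gamma target genes, stood at 64.5, 64.3 and 66.1 in BM and 217, 220.4 and 207 in PB (1.71 ± 0.05, adjusted p = 4.03e-08). *Irf9* stood at 57.9, 56.0 and 57.3 and 94.4, 90.7 and 95.5, and *Stat2* at 17.9, 16.9 and 17.5 and 24.6, 27.8 and 20.9. BM and PB did not overlap for any of the 4 genes, but the log2 differences of 0.70 for *Irf9* and 0.46 for *Stat2* were under the threshold.

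None of the 4 sensors was called. *Ifih1*, which encodes the long double-stranded RNA sensor MDA5, stood at 7.44, 7.31 and 6.72 in BM and 13.6, 13.9 and 13.0 in PB (0.83 ± 0.07, adjusted p = 8.66e-06). The log2 difference was 0.59 for *Ddx58* (RIG-I), 0.83 for *Zbp1*, a sensor of Z-form nucleic acids, and -0.34 for *Dhx58* (LGP2).

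The interferon-inducible GTPases, which attack vacuoles of intracellular microbes, rose in 7 of 7 members, with a median of 1.66, and 2 of the 7 (*Gbp3* and *Gbp5*) passed the filter through PB alone. *Gbp2* stood at 15.0, 14.2 and 12.3 FPKM in BM and 87.4, 76.1 and 92.9 in PB, the largest called rise on the log2(FPKM + 1) scale (2.54 ± 0.10, adjusted p = 1.55e-07). *Igtp* (IRGM3) stood at 19.0, 19.3 and 18.4 in BM and 42.5, 44.0 and 42.6 in PB (1.15 ± 0.05, adjusted p = 2.97e-07). *Gbp5*, which promotes inflammasome assembly, stood at 0.638, 0.616 and 0.541 and 5.37, 5.75 and 3.90 (1.90 ± 0.12, adjusted p = 3.43e-06). *Gbp5*, *Gbp3* and *Cxcl10* had no BM library at 1 FPKM and passed the filter through PB alone, with 30 to 37 reads of *Gbp5*, 21 to 33 of *Gbp3* and 8 to 20 of *Cxcl10* per BM library, and that scale understates their rise. *Samd9l*, a brake on protein synthesis in infected and in blood-forming cells, was the only member that fell: it stood at 114, 113 and 116 in BM and 57.3, 62.2 and 38.2 in PB (-1.14 ± 0.16, adjusted p = 3.04e-04), and it fell under the threshold without PB library 3 (-0.93).

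From PB to lung, 15 of 42 members fell and 2 rose, where 19.5% and 7.75% of 7577 genes were called. The median log2 difference of the members was -0.86, against -0.54 over all genes, so part of each fall is shared with most genes. Under rescaling, 5 of 42 members fell and 4 rose, where 466 and 931 of 7482 genes were called in those directions. At adjusted p alone, 39 of 42 were called, against 85.5% of all genes. *Igtp* fell from 42.5, 44.0 and 42.6 FPKM in PB to 8.88, 8.32 and 7.16 in lung (-2.28 ± 0.08, adjusted p = 8.11e-08, or -1.74 relative to the median gene). *Cmpk2*, a mitochondrial nucleotide kinase, fell from 50.8, 52.6 and 61.3 to 10.7, 10.9 and 10.7 (-2.24 ± 0.08, adjusted p = 7.89e-08, or -1.71 relative to the median gene). *Usp18* stood at 8.66, 7.57 and 7.12 in lung (-1.95 ± 0.07, adjusted p = 1.44e-07), below both PB and BM as deposited. After rescaling, its lung libraries no longer lay below all BM libraries. *Ifit3b* stood at 41.9, 37.9 and 41.1 in PB and 9.87, 8.46 and 8.15 in lung (-2.07 ± 0.08, adjusted p = 1.47e-07), and no lung library reached a PB library. *Ifit3b*, *Irgm1*, *Igtp*, *Cmpk2* and *Usp18* were the 5 members that stayed called as lower under rescaling (-1.49, -1.22, -1.69, -1.65 and -1.37).

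The other falls were called on deposited FPKM and not after rescaling. *Irf1* stood at 70.0, 72.4 and 69.8 in lung, close to BM as deposited and far below PB (-1.59 ± 0.05, adjusted p = 4.52e-08, and -0.97 rescaled). Every BM library was below every lung library for *Irf1*, both as deposited and after rescaling. *Ifit1* stood at 17.4, 16.5 and 17.1 (-1.55 ± 0.09, adjusted p = 1.57e-06, and -0.95 rescaled), and *Ifit3* at 23.0, 23.0 and 23.3 (-1.34 ± 0.05, adjusted p = 1.22e-07, and -0.74 rescaled). All 3 genes were lower in every lung library than in every PB library. *Irf7* stood at 108, 108 and 103, *Irf9* at 47.6, 48.1 and 46.8, *Stat2* at 12.0, 11.9 and 13.4 and *Ifih1* at 10.8, 11.6 and 10.8, with log2 differences of -0.75, -0.96, -0.91 and -0.26 that were not called. *Rsad2* stood at 82.0, 81.2 and 84.4, *Oasl1* at 43.3, 44.0 and 47.2 and *Gbp2* at 53.5, 53.8 and 51.2, also uncalled (-0.49, -0.85 and -0.68). For these 7 genes the lung libraries lay below the PB libraries as deposited. The rescaled differences of *Rsad2* (0.13) and *Ifih1* (0.31) were above 0, and those of the other 5 were between -0.35 and -0.07.

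*Isg15* and *Cxcl10* were the 2 members that rose from PB to lung. *Isg15* stood at 349.8, 314 and 313 FPKM in lung (1.35 ± 0.06, adjusted p = 3.53e-07) and lay above every PB and BM library. *Cxcl10*, a chemokine that draws CXCR3-bearing lymphocytes, stood at 0.568, 0.376 and 0.989 in BM, 5.75, 5.67 and 3.71 in PB and 24.3, 19.7 and 21.7 in lung (1.94 ± 0.15, adjusted p = 6.01e-06). *Isg20*, an RNA exonuclease, stood at 15.4, 17.5 and 17.2 in BM, 53.8, 57.1 and 55.0 in PB and 92.7, 94.7 and 102 in lung (0.79 ± 0.06, adjusted p = 3.91e-06). *Gbp5* stood at 8.28, 8.89 and 9.37 in lung (0.73 ± 0.12, adjusted p = 6.87e-04). Both differences were under the fold threshold. In all 4 genes every lung library was above every PB library and every PB library above every BM library. *Isg20* and *Gbp5* passed the fold threshold under rescaling (1.40 and 1.26), as did *Isg15* and *Cxcl10* (1.97 and 2.49). Lung libraries also held *H2-Aa*, and less *Csf1r* than PB libraries (above). The methods describe an enzyme digestion of lung tissue for cell suspensions and none of PB or BM. Digestion therefore cannot be told apart from tissue where lung neutrophils are compared with PB or BM neutrophils. The part of these markers and of digestion in the differences was not tested.

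**Figure D2:**
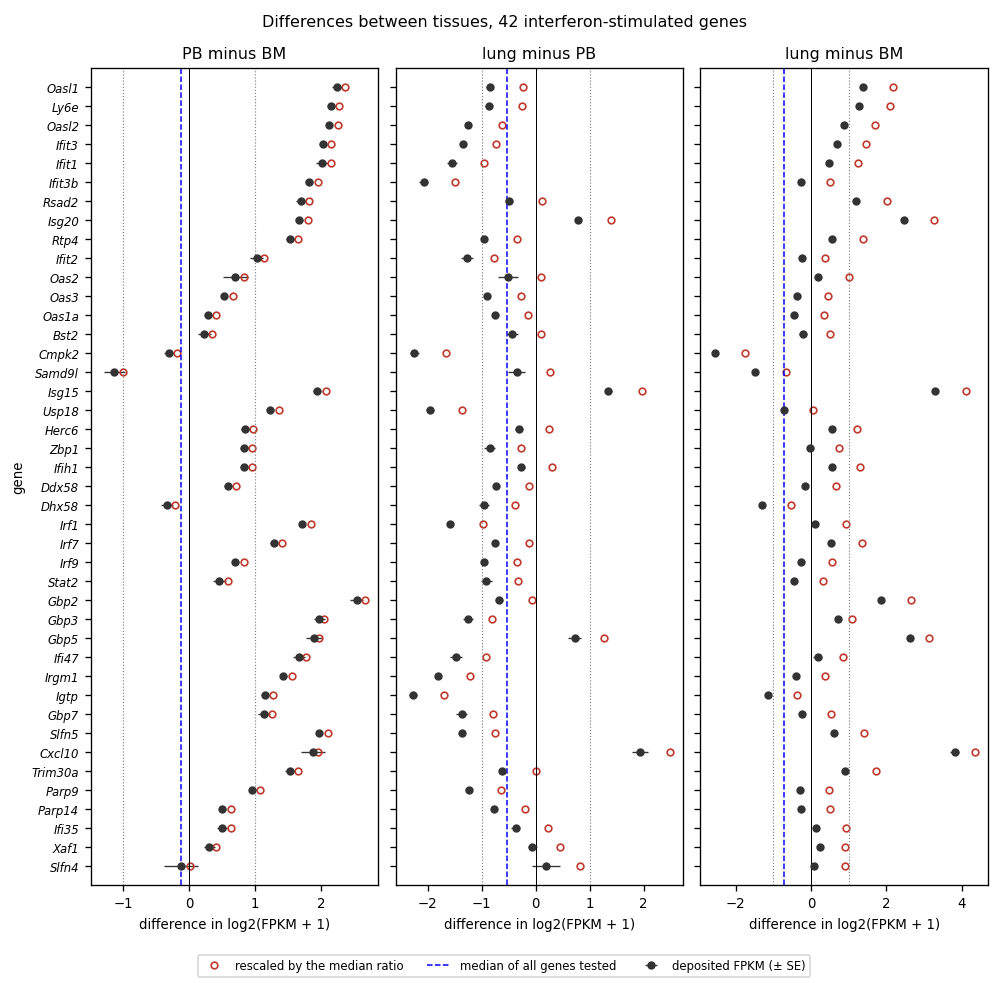
Log2 differences between tissues for 42 interferon-stimulated genes, from deposited FPKM (filled, ± SE) and after rescaling by the median ratio (open). The dashed line is the median of all genes tested and dotted lines mark differences of 1. Most genes sit right of the dashed line in the PB against BM panel, whereas *Isg15*, *Isg20*, *Cxcl10* and *Gbp5* lie farthest right in the lung against PB panel.

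Against BM, 8 members were higher in lung and 4 were lower, where 9.86% and 36.0% of 8236 genes were called. The median was 0.16 over the members and -0.70 over all genes. Under rescaling 19 members were higher and 1 was lower, where 1582 and 1171 of 8059 genes were called. At adjusted p alone, 39 of 42 were called, against 92.6% of all genes. *Cxcl10* had the largest rise (3.81 ± 0.13, adjusted p = 9.41e-10), followed by *Isg15* (3.29 ± 0.06, adjusted p = 5.72e-12) and *Gbp5* (2.62 ± 0.07, adjusted p = 1.95e-10). *Cxcl10*, *Gbp5* and *Gbp3* passed the filter through lung alone in this comparison. *Isg20*, *Gbp2*, *Oasl1*, *Ly6e* and *Rsad2* were the other members that rose, by 2.46, 1.86, 1.39, 1.28 and 1.20. The 4 members that fell were *Cmpk2* (-2.56 ± 0.03, adjusted p = 9.20e-13), *Samd9l* (-1.49), *Dhx58* (-1.30) and *Igtp* (-1.13), of which *Cmpk2* alone was called under rescaling. *Cmpk2* stood at 67.1, 69.2 and 68.4 in BM, *Samd9l* at 40.0, 41.9 and 38.5 in lung, and *Dhx58* at 21.5, 24.7 and 23.0 in BM and 8.996, 8.04 and 9.37 in lung, with no overlap between tissues. *Rsad2*, the neighbor of *Cmpk2* in the genome, moved the opposite way. Without any 1 lung library 10 of the 12 members were called, since *Cxcl10* and *Gbp5* were no longer tested. Immature neutrophil markers and the negative selection differed between lung and BM too (above), and their part in these differences was not tested.

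Genes that make, carry or brake the interferon signal were followed in the same libraries, and 27 of 39 listed were tested. Transcripts of 8 interferon ligands gave at most 1 read in any library of the tissue experiment, where a count of 0 allows up to 3 reads per library. In the *Piezo1* experiment *Ifnl2* reached 15 reads in PB WT library 2 and the other ligands at most 3. *Ifnar1*, the receptor chain for type I interferon, stood at 19.2, 19.7 and 21.0 FPKM in BM, 30.1, 30.1 and 24.6 in PB and 103, 107 and 105 in lung (1.86 ± 0.08, adjusted p = 2.87e-07 from PB to lung). *Ifngr1* stood at 48.6, 55.3 and 53.1 in BM, 117, 116 and 124 in PB and 123, 113 and 111 in lung (1.17 ± 0.06, adjusted p = 9.62e-07 from BM to PB). *Ifnlr1*, the receptor chain for interferon-lambda, fell from BM to PB by 1.91 on the log2 scale. Lung neutrophils had the most *Ifnar1* of the 3 tissues. *Socs3*, a brake on cytokine receptors, stood at 44.3, 47.5 and 44.4, 466, 474 and 401 and 271, 276 and 278 in the same order (3.27 ± 0.07, adjusted p = 1.76e-08 from BM to PB). Over all pathway genes 5 rose and 3 fell from BM to PB, and 3 rose and 5 fell from PB to lung, against the shares of all genes given above.

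The second experiment repeated the comparison of lung and PB in WT mice, in libraries that share none with the first. There 19 of 42 members fell from PB to lung and 2 rose, where 26.5% and 7.50% of 7143 genes were called. Under rescaling 9 fell and 3 rose, where 637 and 945 of 7009 genes were called. At adjusted p alone, 39 of 42 were called, against 89.0% of all genes. The same 2 genes rose in both experiments. *Isg15* stood at 34.6 and 35.6 FPKM in PB and 148 and 171 in lung (2.15 ± 0.07, adjusted p = 1.24e-07), and *Cxcl10* at 9.44 and 11.3 and 26.3 and 26.8 (1.28 ± 0.08, adjusted p = 4.29e-06). Of the falls, 14 genes were called in both experiments, which is 93.3% of the 15 of the first and 73.7% of the 19 of the second. Over all genes the overlap of calls was not counted, and 74.0% of the genes tested in both experiments were lower in both. The overlap therefore shows nothing particular to the members. *Igtp* stood at 83.3 and 83.5 in PB and 9.99 and 9.73 in lung (-2.96 ± 0.05, adjusted p = 4.23e-09), *Usp18* at 48.0 and 48.9 and 8.83 and 8.90 (-2.33 ± 0.05, adjusted p = 2.17e-08), and *Cmpk2* at 51.4 and 48.5 and 10.04 and 11.0 (-2.14 ± 0.06, adjusted p = 8.87e-08). *Irf1* stood at 286 and 275 in PB and 69.2 and 67.5 in lung (-2.02 ± 0.03, adjusted p = 5.09e-09). In each of these 4 genes PB was several times higher than lung in both libraries. Over all members 40 of 42 had the same direction in both experiments, which is near the 90.3% of all 6719 genes tested in both. *Ddx58* was called at -1.05 and was just under the threshold without PB WT library 1 (-0.9996).

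Levels were not the same in both experiments, and the reason was not tested. *Isg15* in PB was 128, 123 and 131 in the first and 34.6 and 35.6 in the second, and *Gbp5* in lung was 8.28, 8.89 and 9.37 and 1.24 and 1.12. *Slfn4* stood at 306 and 300.3 in WT lung and 433 and 419 in WT PB of the second experiment. By group mean *Ly6e*, not *Slfn4*, was then the highest member in every group. In WT lung the libraries of the 2 genes overlapped, with *Ly6e* at 304 and 316.

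**Figure D3:**
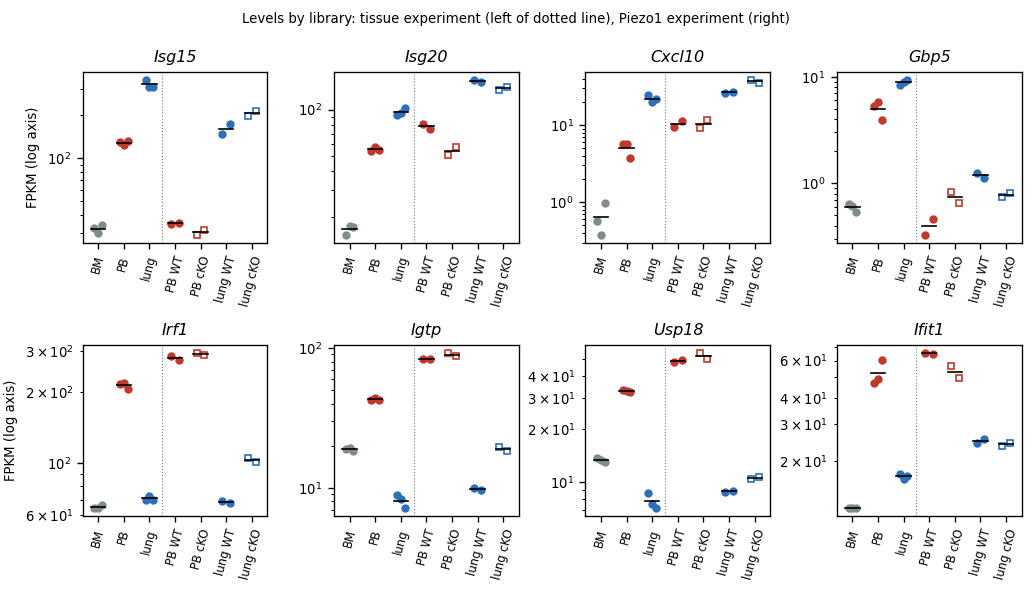
FPKM by library (points, log axis) with group means (bars) for 8 interferon-stimulated genes in BM, PB and lung neutrophils of the tissue experiment and in PB and lung neutrophils of WT (filled) and *Piezo1*-cKO (open) mice. In the upper row lung points lie above PB points in both experiments except for the low levels of *Gbp5* in *Piezo1*-cKO mice, and in the lower row PB points lie above lung points.

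*Piezo1* deletion was compared with WT in each tissue. The targeted gene could not check the labels: *Piezo1* reads numbered 5 and 5 in PB of WT mice, 3 and 10 in PB of *Piezo1*-cKO mice, 8 and 8 in lung of WT mice and 7 and 4 in lung of *Piezo1*-cKO mice, and deletion of some exons leaves the others countable. No member was called in lung (0 of 41, where 0.793% of 6434 genes were called higher and 0.202% lower) or in PB (0 of 41, where 1.68% of 7256 were called higher and 1.97% lower) with limma. edgeR and DESeq2 on the recovered reads called 0 members in lung and 1 in PB, *Ifit2*. Without the threshold on fold, 16 members were higher and 7 lower at adjusted p below 0.05 in *Piezo1*-cKO lung, where 35.0% and 15.8% of all genes were. In PB 8 were higher and 13 lower, where 26.5% and 23.2% of all genes were. At an unadjusted p below 0.05 the counts were 18 and 8 in lung (39.0% and 18.4% of all genes) and 8 and 13 in PB (30.2% and 26.7%). The median over the members was 0.09 in lung, as over all genes (0.09), and -0.09 in PB (0.02 over all genes).

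*Igtp*, *Irf1* and *Gbp2* had the largest differences in lung, none of them called. *Igtp* stood at 9.99 and 9.73 FPKM in WT lung and 19.6 and 18.4 in *Piezo1*-cKO lung (0.88 ± 0.06, adjusted p = 1.09e-04). *Irf1* stood at 69.2 and 67.5 in WT and 105 and 101 in *Piezo1*-cKO (0.59 ± 0.04, adjusted p = 9.39e-05). *Gbp2* stood at 47.8 and 46.0 and 68.9 and 70.8 (0.56 ± 0.04, adjusted p = 1.09e-04). Both *Piezo1*-cKO libraries lay above both WT libraries in each, with differences under the log2 threshold of 1. Of the 7 GTPases in lung, 5 were higher and 1 lower at adjusted p alone (35.0% and 15.8% of all genes), and the lower one, *Gbp5*, passed the filter through WT alone. *Cxcl10* stood at 26.3 and 26.8 in WT and 38.6 and 35.4 in *Piezo1*-cKO (0.46 ± 0.05, adjusted p = 7.06e-04), and *Isg15* at 148 and 171 and 197 and 213 (0.36 ± 0.08, adjusted p = 0.0120). *Irf7* stood at 108 and 104 and 130.1 and 126, and *Irf9* at 39.8 and 40.3 and 48.7 and 49.4. The antiviral effectors were mixed, with 4 higher and 5 lower at adjusted p alone. *Ifit1* was 24.6 and 25.4 in WT and 23.8 and 24.4 in *Piezo1*-cKO, *Ifit3* 23.5 and 22.3 and 20.0 and 20.9, *Rsad2* 58.5 and 59.1 and 58.4 and 54.0, and *Oasl1* 38.0 and 36.5 and 36.9 and 36.7. *Stat2* (3.37 and 3.07 and 2.79 and 2.35), *Ifih1* (6.13 and 5.38 and 5.54 and 5.10), *Gbp5* (1.24 and 1.12 and 0.742 and 0.812) and *Slfn4* (284 and 278 in *Piezo1*-cKO) were at or below the WT level. *H2-Aa* was 70.4 and 71.7 in WT lung and 46.6 and 50.3 in *Piezo1*-cKO lung, immature neutrophil markers summed to 946 to 961 and 1265 to 1266, and monocyte and macrophage markers to 119.5 to 122 and 149.0 to 149.1. Their part in these differences was not tested.

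In PB the members that differed most were lower in *Piezo1*-cKO mice. *Ifit2* stood at 6.13 and 6.44 FPKM in PB of WT mice and 3.06 and 3.15 in PB of *Piezo1*-cKO mice (-0.83 ± 0.09, adjusted p = 6.19e-04). *Samd9l* stood at 31.8 and 31.1 and 20.4 and 19.9 (-0.61 ± 0.06, adjusted p = 5.01e-04), and *Gbp3* at 7.96 and 8.57 and 4.61 and 5.63 (-0.60 ± 0.10, adjusted p = 0.00337). The groups were apart in all 3 genes. *Igtp* was 83.3 and 83.5 in WT and 92.0 and 87.0 in *Piezo1*-cKO PB, *Irf1* 286 and 275 and 294 and 289, and *Gbp2* 83.7 and 83.3 and 79.5 and 74.3. None of these reached an adjusted p below 0.05 in PB. *Isg15* was 34.6 and 35.6 and 29.1 and 31.8, *Cxcl10* 9.44 and 11.3 and 9.16 and 11.5, *Irf7* 198 and 192 and 198 and 177, and *Usp18* 48.0 and 48.9 and 53.8 and 50.001. The log2 differences of these 4 genes ran from -0.20 for *Isg15* to 0.10 for *Usp18*. Among the effectors, *Ifit1* was 65.2 and 64.8 in WT and 56.3 and 49.7 in *Piezo1*-cKO PB, *Ifit3* 51.9 and 47.9 and 49.6 and 48.4, *Rsad2* 59.9 and 55.2 and 74.0 and 70.2, and *Oasl1* 57.2 and 56.4 and 69.9 and 63.5. *Irf9* was 97.5 and 92.5 and 107 and 105, *Stat2* 7.70 and 7.79 and 7.57 and 7.40, *Ifih1* 6.27 and 6.21 and 8.09 and 7.36, *Gbp5* 0.326 and 0.463 and 0.826 and 0.654, and *Slfn4* 433 and 419 and 322 and 311. Of these 9 genes, *Slfn4* had the largest difference (-0.43) among those tested. The summed erythroid markers reached 572 and 564 FPKM in *Piezo1*-cKO PB, against 11.0 and 11.7 in WT. Immature neutrophil markers reached 3060 and 3195 in *Piezo1*-cKO PB, against 1921 and 1932 in WT. Their part in the PB differences was not tested.

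**Figure D4:**
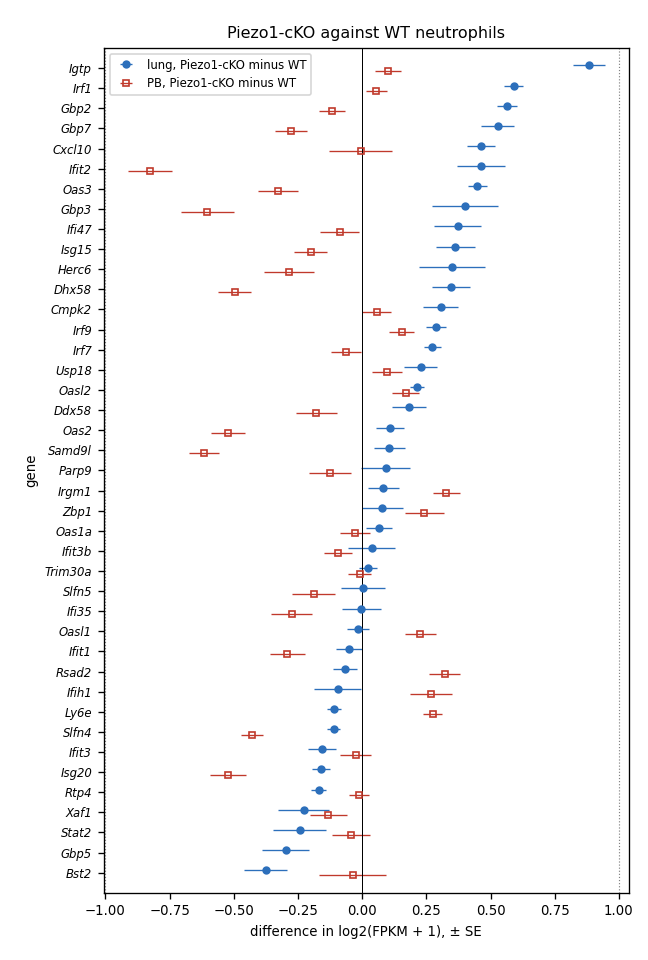
Log2 difference (± SE) of *Piezo1*-cKO against WT neutrophils in lung (filled circles) and PB (open squares) for 41 interferon-stimulated genes tested in lung, ordered by the lung difference. Dotted lines mark differences of 1, which no gene passes. *Igtp*, *Irf1* and *Gbp2* are at the top for lung and *Ifit2* is farthest left for PB.

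The genotype difference itself differed between lung and PB for 2 of 42 members, *Ifit2* and *Gbp3*, where 6.85% of 7560 genes were called (4.29% higher and 2.57% lower). At adjusted p alone 27 of 42 members were called, against 48.2% of all genes. The interaction is the *Piezo1*-cKO minus WT difference in lung less that in PB. It was 1.29 ± 0.11, adjusted p = 1.06e-04 for *Ifit2*, which stood at 1.54 and 1.55 FPKM in WT lung and 2.38 and 2.64 in *Piezo1*-cKO lung. It was 1.00 ± 0.18, adjusted p = 0.00243 for *Gbp3*, which stood at 1.43 and 1.04 and 2.21 and 1.69. Both genes were higher in *Piezo1*-cKO lung and lower in *Piezo1*-cKO PB. The *Gbp3* interaction rests on 50 to 104 reads per lung library and fell under the threshold without WT lung library 2 (0.88), *Piezo1*-cKO lung library 1 (0.88), WT PB library 2 (0.96) or *Piezo1*-cKO PB library 1 (0.88), and under rescaling (0.94). It stayed called by edgeR and DESeq2 on the recovered reads. Lung against PB within *Piezo1*-cKO mice gave 16 members lower and 3 higher (23.0% and 7.93% of 7163 genes called). Under rescaling 5 were lower and 3 higher, where 561 and 980 of 7110 genes were called. At adjusted p alone 37 of 41 were called, against 84.5% of all genes. *Isg15* (2.71 ± 0.06, adjusted p = 2.26e-07), *Cxcl10* (1.75 ± 0.11, adjusted p = 1.08e-05) and *Isg20* (1.33 ± 0.07, adjusted p = 4.53e-06) were the members that rose. *Irgm1*, *Usp18* and *Igtp* had the largest falls (-2.33, -2.19 and -2.17). *Irgm1*, a regulator of autophagy among the GTPases, stood at 76.7 and 78.4 in *Piezo1*-cKO PB and 15.1 and 14.3 in *Piezo1*-cKO lung, and *Usp18* stood at 10.5 and 10.6 in *Piezo1*-cKO lung. *Gbp3* was called lower there at -1.05, but not without *Piezo1*-cKO lung library 2 (-0.93) or *Piezo1*-cKO PB library 2 (-0.93). This comparison shares its PB and lung libraries with those above.

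In whole lung the highest members were *Ly6e*, *Bst2* and *Ifit3*. *Ly6e*, by group mean also the highest member of the sorted neutrophils of the second experiment, stood at 188, 197 and 202 FPKM in control lungs. *Bst2*, which encodes tetherin, stood at 101, 92.8 and 83.4, and *Ifit3* at 53.3, 41.1 and 44.8. *Slfn4*, the highest member of sorted neutrophils in the first experiment, stood at 2.52, 2.04 and 2.10. The Mx genes, GTPases that block viral replication, were low: *Mx1* stood at 1.13, 1.32 and 1.23 in control and 1.27, 0.490 and 0.333 in depleted lungs.

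Depletion left no member past the threshold for whole lung, an adjusted p below 0.05 with a log2 difference over 0.5 in size (0 of 44 tested with limma). Across all 13990 genes, 1 was called (0.00715%), the water channel gene *Aqp5*. The neutrophil marker *S100a8* was not called either, at 41.2, 35.0 and 35.1 FPKM in control and 20.2, 14.3 and 6.78 in depleted lungs. The lack of calls therefore does not show that the members were unchanged. The study, in its own analysis, reports that depletion affected many genes. At an unadjusted p below 0.05, 0 members were higher and 6 lower, where 3.53% and 7.69% of all genes were. Most members were nominally lower in depleted lungs (39 of 44, against 61.5% of all genes), with a median of -0.17 against -0.04 over all genes. Under rescaling 32 of 44 were lower, with a median of -0.12 against 0.004 over all genes. *Slfn4* stood at 1.53, 0.455 and 0.267 FPKM in depleted lungs (-0.94 ± 0.25, adjusted p = 0.251), below all controls. *Rsad2* stood at 2.95, 2.66 and 2.39 in control and 2.18, 1.11 and 1.47 in depleted lungs (-0.52 ± 0.16, adjusted p = 0.301), also apart. *Gbp2* stood at 35.1, 27.4 and 36.9 and 29.3, 22.3 and 20.1 (-0.46 ± 0.16, adjusted p = 0.359), with overlap. The groups did not overlap for 4 members, all lower in depleted lungs (11.8% of all genes did so), namely *Slfn4*, *Rsad2*, *Rtp4* and *Ifit3b*. *Isg15* was 23.1, 23.9 and 19.8 in control and 20.6, 19.8 and 14.8 in depleted lungs, *Igtp* 18.1, 13.7 and 24.6 and 17.5, 12.2 and 10.8, and *Gbp5* 2.56, 2.49 and 3.41 and 2.85, 1.81 and 1.37. *Irf1* (24.8, 25.6 and 24.8 and 25.6, 21.9 and 23.2), *Irf7* (6.37, 5.53 and 5.36 and 6.53, 5.55 and 3.71) and *Ifit1* (12.9, 11.6 and 12.7 and 11.7, 13.7 and 12.4) overlapped between groups. *Ifit3* stood at 40.9, 49.2 and 43.7 in depleted lungs, and *Usp18* at 10.7, 9.16 and 9.95 in control and 9.97, 10.9 and 8.93 in depleted lungs. *Irf9* was 11.6, 9.58 and 11.7 and 10.5, 12.0 and 9.95, *Stat2* 6.43, 6.10 and 6.59 and 8.38, 7.22 and 5.50, *Ifih1* 7.02, 5.83 and 5.99 and 6.65, 5.73 and 6.04, and *Oasl1* 2.26, 1.26 and 1.97 and 0.871, 1.28 and 1.10. None of these 6 genes was called, and their log2 differences ran from -0.43 for *Oasl1* to 0.11 for *Stat2*. *Cxcl10* stood at 0.854, 0.545 and 0.947 in control and 0.983, 0.833 and 0.513 in depleted lungs, below the filter, and was not tested.

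Some cell markers moved with these values. Summed markers of neutrophils, B cells and fibroblasts were lower in every depleted library than in every control library. The fibroblast sums were 182 to 193 in control and 133 to 170 in depleted lungs. The sums of the other listed cell types overlapped between groups, such as monocytes and macrophages (106 to 110 and 98.7 to 112). Neutrophil markers summed to 262, 205 and 207 FPKM in control and 124, 92.6 and 43.0 in depleted lungs, so depleted library 1 kept the most and library 3 the least. B cell markers summed to 80.4 to 85.6 in control and to 67.4, 57.3 and 31.4 in depleted lungs, and T and NK cell markers to 55.8 to 79.0 and to 66.8, 50.6 and 38.0. *Slfn4* was also highest in depleted library 1 and lowest in library 3. The defining marker *Ly6g* was at or below 0.58 FPKM in every whole-lung library. In whole tissue, fewer cells of a type and less RNA per cell cannot be told apart. The part of the lymphocyte and fibroblast markers in the lower values was not tested.

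**Figure D5:**
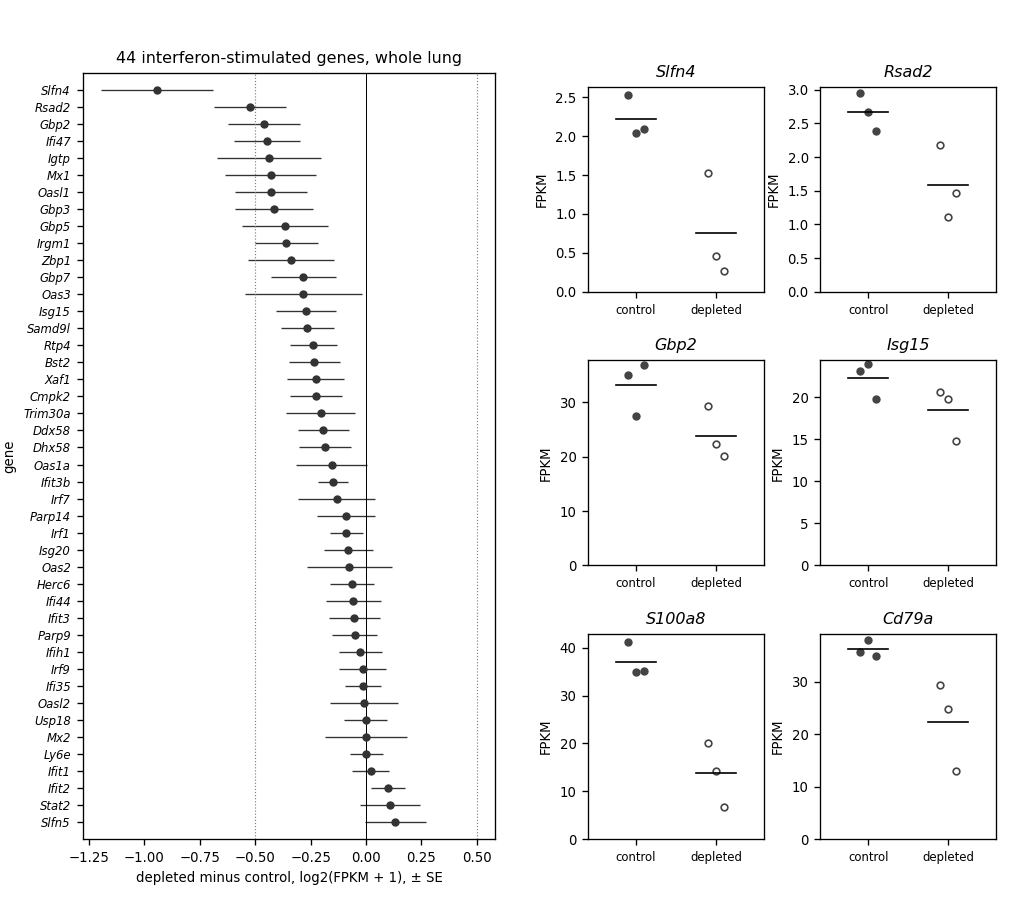
Left, log2 difference (± SE) of neutrophil-depleted against control whole lungs for 44 interferon-stimulated genes, with dotted lines at differences of 0.5. Right, FPKM per library (points) and group mean (bar) of 4 members, the neutrophil marker *S100a8* and the B cell marker *Cd79a*. Most points lie left of 0, *Slfn4* and *Rsad2* farthest, and *S100a8* and *Cd79a* are also lower in depleted lungs.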

How the data were processed

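RNA-Seq libraries were prepared from sorted neutrophils (17 libraries) and whole lung (6). Per the submitters' processing notes the reads were handled with fastp, HISAT2 and HTSeq against mm10, with versions not given in the sources used here. The authors deposited FPKM per gene, reads scaled to transcript length and library size. The deposited signal columns (group means of normalized counts) were made by the authors by dividing counts by size factors, and they served only to recover reads. The authors' fold changes, p and q values were not used. Replicates were not pooled. The labels name a SMARTER kit and the methods a VAHTS kit, and counting may drop or misassign reads of near-identical genes.

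Whole reads were recovered from FPKM in the 17 neutrophil libraries: 100.0% of 207737 values came out whole within 0.05 reads. Whole-lung depth is unknown. Dates that a spreadsheet had made of 27 gene symbols were restored by gene identifier. The limma test (version 3.58.1, trend and robust, in R 4.3.3) was run on log2(FPKM + 1) of genes with at least 1 FPKM in at least 3 libraries of the fit, or 2 in the *Piezo1* experiment. The fold change is on that scale, which understates changes of low genes. Benjamini-Hochberg adjustment ran over all genes tested. Calls needed an adjusted p below 0.05 and a log2 difference over 1 in size (0.5 in whole lung). Lung, PB and BM were compared pairwise, *Piezo1*-cKO with WT within lung and PB, lung with PB within each genotype, and depleted with control lungs. The members and lists were chosen with earlier results of these data known. Every library's value was given for 17 members and for the 3 largest called rises and falls of a comparison, where the groups did not overlap and the higher mean was at least 5 FPKM. Alternatives were a pseudocount of 0.1, no filter on low values, rescaling by the median ratio between libraries, a replicate block, all libraries in 1 fit, adjusted p alone, leaving out each library, and edgeR (4.0.16) and DESeq2 (1.42.0) on recovered reads. Fits were tested on simulated data. The values of 1 pathway gene are not reported here. Floors for a count of 0 cover counting error only.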

Additional observations from a re-analysis of the deposited data

Results flagged for a closer look

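For 2 members the effect of *Piezo1* deletion differed between lung and PB in a test of the difference itself. The interaction (*Piezo1*-cKO minus WT in lung, less the same in PB) was 1.29 on the log2 scale for *Ifit2* and 1.00 for *Gbp3* by limma with Benjamini-Hochberg adjusted p of 1.06e-04 and 0.00243. Both *Piezo1*-cKO libraries lay above both WT libraries in lung and below both in PB for each gene. The *Gbp3* call was lost in 4 of 8 fits that left out 1 library (0.88 to 0.96) and under rescaling (0.94), which leaves *Ifit2* alone. Of all genes, 6.85% passed the same test, a larger share than the 2 of 42 members, and *Piezo1*-cKO PB libraries also differed from WT PB in erythroid marker level (564 to 572 against 11.0 to 11.7 FPKM summed), whose part was not tested.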

How the results depend on the processing

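No call of a member changed direction under any alternative run. Of 96 called differences, 91 kept their call whichever library was left out, where they were still tested, and 5 lost it at least once. Rescaling by the median ratio changed the number of called members to 9 for lung against PB (17 as deposited), 20 for lung against BM (12), 12 for lung against PB in WT mice of the *Piezo1* experiment (21), 8 in *Piezo1*-cKO mice (19) and 1 for the interaction (2). edgeR with TMM, edgeR with RLE and DESeq2 on recovered reads called 11, 11 and 11 members for lung against PB, 21, 22 and 22 for lung against BM, 9, 8 and 9 for lung against PB in *Piezo1*-cKO mice, and 1, 1 and 1 for *Piezo1*-cKO against WT in PB (0 with limma). Adjusted p alone, a looser rule by construction, called 39 members for lung against PB, 39 for lung against BM, 40 for PB against BM, 39 and 37 for lung against PB in WT and *Piezo1*-cKO mice, 23 and 21 for *Piezo1*-cKO against WT in lung and PB, and 27 for the interaction. Leaving out 1 library gave 17 to 20 members for lung against PB, 10 to 12 for lung against BM, 21 to 25 for PB against BM, 21 to 22 and 18 to 19 for lung against PB in WT and *Piezo1*-cKO mice, 0 for each genotype comparison and for whole lung, and 1 to 2 for the interaction. The other changes of setting left counts within 1.5 times, and apart from the construction of the looser rule the cause of the changes was not tested. Same-numbered libraries correlated between -0.084 and 0.075 in their deviations from the group means, and differently numbered libraries between -0.108 and 0.120. With so few libraries per group, these values cannot show whether samples of different groups came from the same mice. With the number as a replicate block the counts were 17, 12, 25, 21 and 19 for the tissue comparisons. They were 0 and 0 for genotype, 2 for the interaction and 0 for whole lung, as without the block. Count tests were not run on whole lung, where reads could not be recovered. Depth limits several tested members, of which at least 1 library held under 100 reads. In the tissue experiment these were *Gbp3* in BM and lung, *Gbp5* in BM, *Cxcl10* in BM and PB, and *Bst2* in every tissue. In the *Piezo1* experiment they were *Gbp3*, *Gbp5*, *Bst2*, *Parp14* and, in *Piezo1*-cKO PB library 1, *Cxcl10*.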
